A study of Homo sapiens with 9 samples.

Results

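Complement is a set of plasma and membrane proteins that tag and lyse cells, and its expression was examined in SNU5, an established human gastric carcinoma line. The genes are 9 listed components and regulators, matched by symbol to the Ensembl IDs of the count files, out of 60880 gene IDs. They are the components C1R, C1S, C3 and CFB, the soluble regulators CFI and SERPING1, and the membrane regulators CD46, CD55 and CD59. Of these, 6 had enough reads to be tested and 3 (CFB, CFI and SERPING1) did not.

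SNU5 cells of the NR group received AuNR-PEG-Ab, those of the SP group AuSP-PEG-Ab and those of the Ab group free ramucirumab, each with 8 μg/mL of antibody for 24 h. Ramucirumab is a monoclonal antibody against VEGFR2, AuNR is a gold nanorod, AuSP is a gold nanosphere and PEG is the polymer that links the gold to the antibody. Each group had 3 poly-A RNA-seq libraries, 9 in all, and every library received the antibody. No untreated library and no library of gold or PEG alone was analysed here, so the gold, the PEG linker and the form of the antibody cannot be told apart in the comparisons with the Ab group. The NR libraries held 25735410, 13863155 and 15943980 counts, the SP libraries 21682836, 22914759 and 20601906, and the Ab libraries 19566064, 26318227 and 21031024. Levels are given as CPM, the counts of a gene scaled to the total of its library, and a count of 0 allows up to 3 counts, which is 0.114 to 0.216 CPM in these libraries and covers counting error only. The study describes replicates of this kind as biological and its experiments as independently repeated, but the labels do not tie a library to a culture, so the p-values measure the spread between these libraries, which may be technical.

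In the classical pathway, C1q bound to antibody activates the proteases C1r and C1s, which cleave C4 and C2, and the resulting convertase splits C3. In the alternative pathway, factor B and factor D build a further C3 convertase that amplifies the deposit of C3b. Cells protect themselves with membrane proteins, among which CD55 speeds the decay of convertases, CD46 is a cofactor for the cleavage of C3b and C4b by factor I, and CD59 blocks the assembly of the membrane attack pore.

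The labelled cell type was compared with markers first. Of 6 epithelial markers, KRT8, a keratin of simple epithelia, was at 637 to 2037 CPM and KRT18, its partner, at 196 to 329 CPM over the 9 libraries. CLDN4, a tight junction protein, was at 41.4 to 51.9 CPM. The epithelial adhesion genes were low and split by group. EPCAM was at 3.95 to 6.20 CPM in NR and SP and 1.48 to 1.66 CPM in Ab. CDH1 was at 5.52 to 7.23 CPM in NR and SP and 0.190 to 0.428 CPM in Ab. KRT19 had at most 1 count in any library. KDR, which encodes the antibody's target VEGFR2, also had at most 1 count in any library. The defining leukocyte genes PTPRC, CD68, LYZ and MS4A1 had at most 1 count each, and the 5 hepatocyte markers, for the cell type that makes most plasma complement, were all at or under 3 counts, with HP at 0.

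Against the Ab group, 5 of the 6 tested complement genes rose in both nanoparticle groups and 1 fell. C1S rose most, C1R and C3 rose by similar amounts, CD46 and CD59 rose by about the fold minimum used for calls, and CD55 fell. Between NR and SP, no tested member passed the test. A gene passed at an adjusted p of at most 0.05 in the quasi-likelihood test of edgeR, adjusted by Benjamini-Hochberg over every gene tested, and was called if it also changed at least 2-fold. In NR against Ab, 5 members passed as higher and 1 as lower, where the background over 15009 genes tested was 36.4% passing as higher and 36.4% as lower, and 4 members were called higher and 1 lower, against 12.4% and 10.3% of all genes. In SP against Ab, 5 passed as higher and 1 as lower, against 36.4% and 36.6% of 15068 genes, and 3 were called higher and 1 lower, against 12.6% and 10.6%. For each of the 6 members, the libraries of the groups compared did not overlap in CPM, as for 74.6% of all genes in NR against Ab and 75.1% in SP against Ab. The median log2 fold change of the 6 members was 1.46 in NR against Ab, beside -0.0055 over all genes, and 1.36 in SP against Ab, beside -0.0067. The same 3 Ab libraries serve as the reference for NR and for SP, so the values of these comparisons stand side by side and are not independent. In bulk RNA, a change in the number of cells that express a gene and a change of RNA per cell cannot be told apart.

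**Figure D1:**
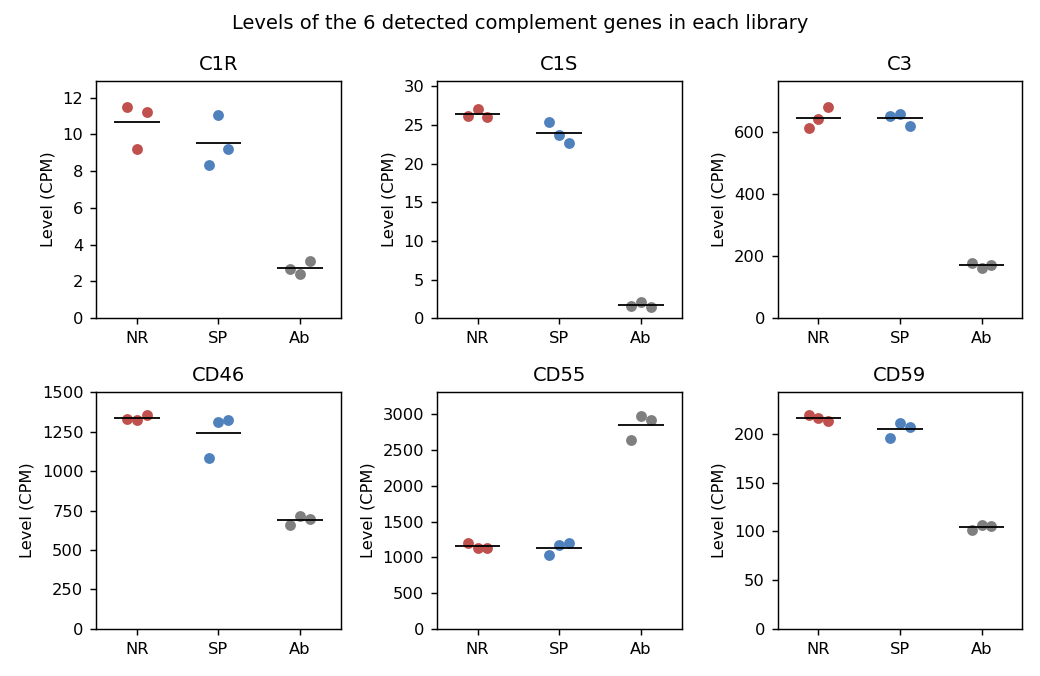
Level (CPM, axis from 0) of the 6 tested complement genes in each library of the NR, SP and Ab groups. Points are libraries and lines are group means; C1R, C1S, C3, CD46 and CD59 lie lower in all 3 Ab libraries, and CD55 lies higher, at 2643 to 2972 CPM against 1028 to 1203 CPM in NR and SP.

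C1R and C1S encode the paired proteases of the first classical component. C1R (GRCh37 chr12:7187513-7245203, minus strand) had 296, 128 and 179 counts in the NR libraries and 181, 254 and 190 in SP, against 52, 64 and 66 in Ab. These counts correspond to 11.5, 9.23 and 11.2 CPM in NR, 8.35, 11.1 and 9.22 CPM in SP, and 2.66, 2.43 and 3.14 CPM in Ab. The nanoparticle libraries were all above the Ab libraries, and NR and SP overlapped. C1R rose by a log2 fold change of 1.95 (SE 0.15, edgeR adjusted p = 3.65e-12) in NR and 1.78 (SE 0.16, edgeR adjusted p = 5.65e-11) in SP. Of its annotated exon bases, 14.3% are shared with C1RL on the same strand.

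C1S (GRCh37 chr12:7096351-7178336, plus strand) had 674, 376 and 415 counts in NR, with 551, 543 and 468 in SP, against 31, 55 and 31 in Ab. Its levels were 26.2, 27.1 and 26.0 CPM in NR, 25.4, 23.7 and 22.7 CPM in SP, and 1.58, 2.09 and 1.47 CPM in Ab. All NR libraries were above all SP libraries by a narrow gap, and both were far above Ab. The change was 14.9-fold in NR (log2 fold change 3.89, SE 0.13, edgeR adjusted p = 1.04e-20) and 13.5-fold in SP (3.75, SE 0.13, edgeR adjusted p = 1.1e-19).

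The proportion between the 2 protease transcripts also differed between the groups. C1S had 2.28, 2.94 and 2.32 counts per count of C1R in the NR libraries and 3.04, 2.14 and 2.46 in SP, against 0.596, 0.859 and 0.47 in Ab. Each nanoparticle library thus held more C1S than C1R reads and each Ab library held fewer, a description to which no test was applied. Per length of annotated exons (TPM), the mean level was 11.6 for C1S and 8.23 for C1R in NR, and 0.819 and 2.31 in Ab. With the longest annotated transcript as the length, a setting chosen after seeing the data, C1R was at 13.6 and C1S at 12.2 in NR, within the spread of C1R (SD 1.52, n = 3), so the order of these genes in the nanoparticle groups depends on the length used, and in Ab C1R was above C1S with either length. Beside them on chromosome 12, C1RL, a C1r-like protease gene that overlaps C1R, rose by 0.48 (SE 0.10, edgeR adjusted p = 0.000135) in NR and 0.62 (SE 0.10, edgeR adjusted p = 1.83e-06) in SP.

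The promoter window of C1R is shown because C1R and C1S moved together and the window of C1R, but none of C1S, is in the RefSeq table used (GRCh38.p14, 250 bases before to 50 after a start). It is 1 of 2 windows of this gene, at chr12:7092396-7092695 on the minus strand, and capitals mark a match to the C/EBP letters TTGCNNAA, read here on the opposite strand.
C1R: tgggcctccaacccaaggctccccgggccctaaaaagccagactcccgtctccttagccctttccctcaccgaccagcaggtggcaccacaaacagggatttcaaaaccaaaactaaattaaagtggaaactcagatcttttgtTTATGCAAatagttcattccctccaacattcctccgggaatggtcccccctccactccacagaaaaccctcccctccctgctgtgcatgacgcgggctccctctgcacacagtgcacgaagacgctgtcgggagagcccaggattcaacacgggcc
The match lies at positions -106 to -99 from the start. These letters, on either strand, are in 10.5% of the 34943 windows of the table, and the window holds no match to the other 5 motifs searched, which are given with the membrane regulators. The other C1R window, which is not printed, holds a GAS match at positions -86 to -78 and a C/EBP match at -167 to -160 from its own start.

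C3, the central component on which all complement pathways converge, was the most abundant of the listed components C1R, C1S, C3 and CFB. C3 (GRCh37 chr19:6677715-6730573, minus strand) had 15781, 8894 and 10876 counts in NR, with 14138, 15124 and 12782 in SP, against 3473, 4260 and 3589 in Ab. Its levels were 613.2, 641.6 and 682.1 CPM in NR, 652.0, 660.0 and 620.4 CPM in SP, and 177.5, 161.9 and 170.7 CPM in Ab. NR and SP covered the same range, well above Ab. C3 rose 3.73-fold in NR (log2 fold change 1.90, SE 0.05, edgeR adjusted p = 2.95e-23) and 3.72-fold in SP (1.90, SE 0.05, edgeR adjusted p = 7.14e-23). Of its exon bases, 11.7% are shared with another annotated gene on the same strand, and the sources used here do not state whether strand was used in counting. C3 has no entry in the promoter table.

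CFB, factor B of the alternative pathway (GRCh37 chr6:31913427-31919863), had 0 counts in 7 of the 9 libraries and 1 count in SP library 3 and in Ab library 3. CFI, the protease that cleaves C3b with CD46 as cofactor (GRCh37 chr4:110652164-110723306), had 0 counts in all NR libraries, at most 1 in SP and at most 2 in Ab. SERPING1, the C1 inhibitor that inactivates C1r and C1s (GRCh37 chr11:57364860-57386644), had 2, 0 and 2 counts in NR, with 1, 3 and 2 in SP, against 4, 3 and 0 in Ab. No difference between groups was detectable for these 3 genes at these counts, and no fold is given for them. Of the annotated exon bases, 42.8% of CFB and 29.4% of CFI are shared with other annotated genes on the same strand, and 0% of SERPING1. The sources used here do not state how reads in shared bases were counted, so low counts of CFB and CFI may understate their transcripts.

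Each membrane regulator had at least 1982 counts in every library. CD46 (GRCh37 chr1:207925382-207968858, plus strand) was at 1328.8, 1327.9 and 1357.8 CPM in NR, 1085.1, 1310.2 and 1325.7 CPM in SP, and 660.2, 714.4 and 699.6 CPM in Ab. Every nanoparticle library was above every Ab library, and SP library 1 was the lowest of the nanoparticle libraries. CD46 rose 1.90-fold in NR (log2 fold change 0.93, SE 0.04, edgeR adjusted p = 7.13e-18) and 1.76-fold in SP (0.82, SE 0.07, edgeR adjusted p = 2e-07), below the fold minimum for a call in both.

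CD59 (GRCh37 chr11:33724556-33758025, minus strand) was at 219.5, 216.0 and 212.9 CPM in NR, 195.8, 211.6 and 207.2 CPM in SP, and 101.3, 107.0 and 106.0 CPM in Ab. The order of the groups was that of CD46, with SP library 1 again the lowest nanoparticle library. CD59 rose 2.02-fold in NR (log2 fold change 1.02, SE 0.05, edgeR adjusted p = 1.56e-17) and was called, and rose 1.92-fold in SP (0.94, SE 0.05, edgeR adjusted p = 8.42e-16) and was not called. The value in NR lies at the fold minimum, and the call was lost without NR library 1 (log2 fold change 0.998), without Ab library 1 (0.993) and with a filter of at least 10 counts in every library (0.995).

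CD55 (GRCh37 chr1:207494864-207560149, plus strand) had 30951, 15638 and 17984 counts in NR, with 22294, 26728 and 24687 in SP, against 51712, 78219 and 61300 in Ab. Its levels were 1202.7, 1128.0 and 1127.9 CPM in NR, 1028.2, 1166.4 and 1198.3 CPM in SP, and 2642.9, 2972.0 and 2914.7 CPM in Ab. Here the Ab libraries were all the higher ones, opposite to the other 5 tested members. CD55 fell 2.51-fold in NR (log2 fold change -1.33, SE 0.04, edgeR adjusted p = 3.2e-20) and 2.56-fold in SP (-1.36, SE 0.06, edgeR adjusted p = 8.36e-14). No annotated gene shares its exon bases.

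**Figure D2:**
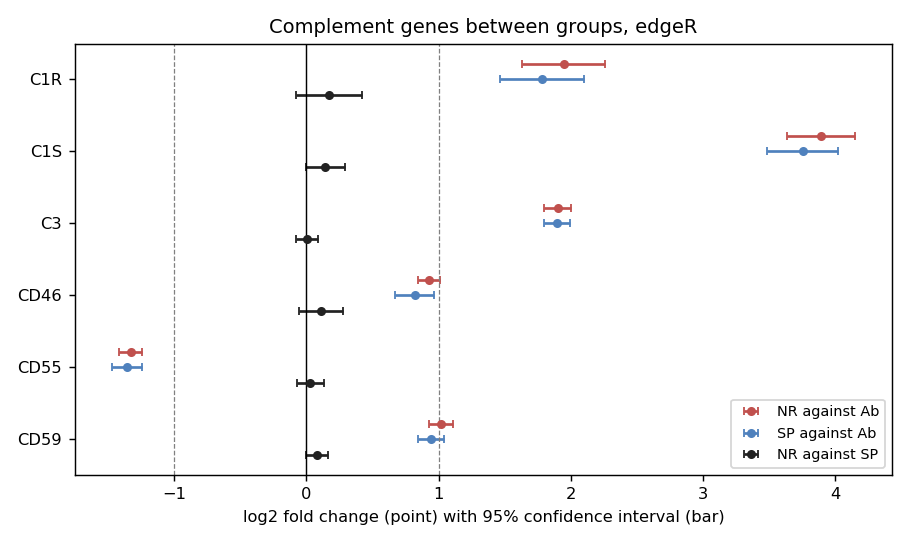
Log2 fold change (horizontal axis) of the 6 tested complement genes in NR against Ab, SP against Ab and NR against SP, from edgeR. Points are estimates, bars are 95% confidence intervals and dashed lines mark a 2-fold change; every interval of NR against SP includes 0 and lies within 0.42 of it on the log2 scale.

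The proportions among the membrane regulators differed between the groups. CD55 had 0.905, 0.849 and 0.831 counts per count of CD46 in the NR libraries and 0.948, 0.89 and 0.904 in SP, against 4, 4.16 and 4.17 in Ab. The ratio of CD46 to CD59 counts, 2 genes that both rose, was 5.54 to 6.40 in NR and SP and 6.52 to 6.68 in Ab. Per length of annotated exons, CD55 made up 50.5% to 53.1% of the summed level (TPM) of the 3 genes in the nanoparticle libraries and 83.2% to 83.8% in Ab. With the longest transcript as the length, these shares were 59.7% to 62.4% and 87.8% to 88.2%, so the gap was seen with either length. The summed CPM of the 3 genes was 2751.0, 2672.0 and 2698.6 in the NR libraries, 2309.1, 2688.2 and 2731.1 in the SP libraries, and 3404.5, 3793.4 and 3720.4 in the Ab libraries. The sum was thus lower in every nanoparticle library than in any Ab library, and these shares and sums are descriptions with no test.

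**Figure D3:**
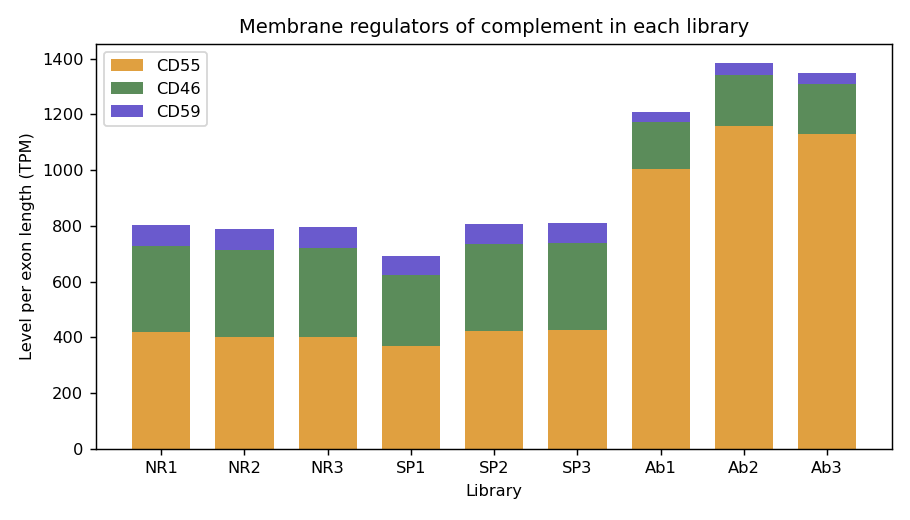
Level per length of annotated exons (TPM, stacked bars from 0) of CD55, CD46 and CD59 in each of the 9 libraries. CD55 reaches 1005 to 1158 TPM in Ab and 368 to 426 TPM in NR and SP, while CD46 is at 166 to 184 TPM in Ab and 257 to 320 TPM in NR and SP.

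The order of the levels per exon length differed between the groups only among the proteases. In NR, the mean levels were 408 TPM for CD55 (SD 11.2, n = 3), 313 for CD46 (SD 6.25), 202 for C3 (SD 12.6), 74.3 for CD59 (SD 0.529), 11.6 for C1S and 8.23 for C1R, and each neighbour differed from the next by more than these SDs. In SP they were 405 for CD55 (SD 32.1), 294 for CD46 (SD 32.0), 204 for C3 (SD 8.20), 71.2 for CD59 (SD 3.09), 10.6 for C1S and 7.47 for C1R, the same order. In Ab they were 1097.3 for CD55 (SD 81.2), 176 for CD46 (SD 9.33), 58.1 for C3 (SD 1.995), 39.3 for CD59 (SD 1.63), 2.31 for C1R and 0.819 for C1S.

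CD55 and CD46 lie in the same cluster of complement regulator genes on chromosome 1, their promoter windows in the RefSeq table (GRCh38.p14) are shown because they moved in opposite directions, and the window of CD59 is shown because CD59 moved with CD46. The windows are chr1:207321428-207321727 on the plus strand for CD55, chr1:207751788-207752087 on the plus strand for CD46 (1 of 2 windows) and chr11:33736430-33736729 on the minus strand for CD59 (1 of 4 windows). Capitals mark a match to a motif.
CD55: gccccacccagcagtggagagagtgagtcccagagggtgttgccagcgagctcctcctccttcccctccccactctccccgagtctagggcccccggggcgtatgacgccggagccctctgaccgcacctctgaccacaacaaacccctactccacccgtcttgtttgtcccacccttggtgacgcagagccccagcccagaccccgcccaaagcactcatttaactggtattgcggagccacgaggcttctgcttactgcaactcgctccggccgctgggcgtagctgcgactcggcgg
CD46: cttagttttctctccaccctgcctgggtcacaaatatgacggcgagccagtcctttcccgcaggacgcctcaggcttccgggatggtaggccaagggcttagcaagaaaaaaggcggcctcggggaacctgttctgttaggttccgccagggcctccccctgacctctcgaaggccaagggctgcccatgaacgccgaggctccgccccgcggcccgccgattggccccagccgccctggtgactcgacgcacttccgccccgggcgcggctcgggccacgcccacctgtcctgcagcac
CD59: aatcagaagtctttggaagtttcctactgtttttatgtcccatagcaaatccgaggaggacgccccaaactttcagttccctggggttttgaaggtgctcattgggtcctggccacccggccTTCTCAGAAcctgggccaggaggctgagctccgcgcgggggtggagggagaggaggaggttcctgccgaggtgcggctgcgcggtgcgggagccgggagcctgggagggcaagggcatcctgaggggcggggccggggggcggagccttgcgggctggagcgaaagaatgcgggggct
The motifs searched on both strands were the kappaB consensus, in 11.3% of all windows, GAS (TTCNNNGAA, 7.66%), the ISRE core (GAAANNGAA, 8.1%), C/EBP (TTGCNNAA, 10.5%), CRE (TGACGTCA, 1.84%) and the amino acid response letters (TGATGNAA, 3.62%). The window of CD59 holds a GAS match at positions -128 to -120, and the windows of CD55 and CD46 hold no match, which says only that these letters are not in these windows. Of the windows not printed, the second of CD46 and 1 of CD59 hold no match, 1 of CD59 overlaps the printed one and holds the same GAS match, and 1 of CD59 holds C/EBP matches at positions -191 to -184 and -53 to -46 from its own start. GC content was 65.0% for CD55, 67.0% for CD46, 64.3% for CD59 and 55.3% for C1R, beside a median of 58.7% over all windows.

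NR against SP compares nanorods with nanospheres that carry the same antibody. The paper also gives different sizes and surface charges for these particles, so shape cannot be told apart from those properties here. The log2 fold changes were 0.0046 for C3 (95% confidence interval -0.0753 to 0.0845), 0.17 for C1R (-0.0787 to 0.419), 0.14 for C1S (-0.00619 to 0.293), 0.11 for CD46 (-0.0545 to 0.277), 0.030 for CD55 (-0.0704 to 0.13) and 0.080 for CD59 (-0.000908 to 0.161). None of the 6 passed the test in edgeR (adjusted p = 0.394 to 0.972), 0 had an unadjusted p under 0.05, and DESeq2, which gave an adjusted p for 4 of the 6 and none for C1R and C1S, passed 0 of those 4, beside 0.443% of 14903 genes passing in this comparison. The NR and SP libraries did not overlap for C1S, CD46 and CD59, 3 of 6 members, all higher in NR, where 18.1% of all genes tested did not overlap. Without SP library 1, the lowest nanoparticle library for CD46, CD55 and CD59, the difference was 0.026 for CD46, -0.032 for CD55 and 0.050 for CD59. These intervals bound the differences and do not show that the particles act alike.

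The rest of the pathway was read from a list of 50 other complement genes. Of these, 27 had at most 3 counts in all 9 libraries and 15 of those had 0 in all, among them C1QA and C1QC of the C1q recognition unit, C2 of the classical convertase and C7, C8A and C8B of the attack pore. Of the exon bases of C2, 30% are shared with other annotated genes. C4A and C4B, near-identical copies between which reads may be split, had at most 6 and 9 counts. In NR against Ab, 16 of the 50 were tested, 8 passed as higher and 4 as lower, and 6 were called higher and 2 lower, beside 36.4% and 36.4% of all genes passing and 12.4% and 10.3% called in these directions. In SP against Ab, 14 were tested, 8 passed as higher and 4 as lower, and 5 were called higher and 2 lower, beside 36.4% and 36.6% passing and 12.6% and 10.6% called. Their median log2 fold changes were 0.53 against Ab in NR and 0.64 in SP, beside the medians of all genes given above. None of 13 tested in NR against SP passed in edgeR, where 1 had an unadjusted p under 0.05, and DESeq2 gave an adjusted p for 4 of them, of which 0 passed.

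Among soluble regulators, 4 rose in both comparisons, 2 fell, and 1, tested only in NR against Ab, did not pass. CLU, clusterin, which binds the forming attack complex, was at 255.4, 246.9 and 238.8 CPM in NR, 242.4, 238.7 and 243.4 CPM in SP, and 24.7, 20.8 and 21.7 CPM in Ab. All nanoparticle libraries lay in a narrow range above Ab, and CLU rose 10.9-fold in NR (log2 fold change 3.44, SE 0.06, edgeR adjusted p = 1.15e-26) and 10.6-fold in SP (3.41, SE 0.06). VTN, vitronectin, with a related role, rose 10.4-fold in NR (log2 fold change 3.39, SE 0.17) and 10.0-fold in SP (3.33, SE 0.17), from 0.988 to 1.66 CPM in Ab, and shares 17.3% of its exon bases with another gene. C4BPA, the alpha chain of the C4b-binding protein, rose 5.94-fold in NR (log2 fold change 2.57, SE 0.12) and 5.68-fold in SP (2.51, SE 0.13). C4BPB, its beta chain, fell slightly, with log2 fold changes of -0.18 (SE 0.05, edgeR adjusted p = 0.00273) in NR and -0.20 (SE 0.05, edgeR adjusted p = 0.000566) in SP, with NR and Ab libraries overlapping. C1QBP, a mitochondrial protein that can bind C1q, also fell, with -0.19 (SE 0.05) in NR and -0.17 (SE 0.05) in SP.

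Of the 2 other alternative pathway genes, CFD, the protease that cleaves bound factor B, was at 168.8, 168.0 and 186.3 CPM in NR, 169.8, 172.3 and 172.9 CPM in SP, and 54.8, 49.4 and 47.6 CPM in Ab. Its groups did not overlap between nanoparticle and Ab libraries, and it rose 3.39-fold in NR (log2 fold change 1.76, SE 0.06, edgeR adjusted p = 2.34e-20) and 3.34-fold in SP (1.74, SE 0.06). CFP, properdin, which stabilises the alternative convertase, was tested in NR against Ab only, with a log2 fold change of -1.02 (SE 0.49, edgeR adjusted p = 0.0634), and passed without NR library 3 (0.0209) and without Ab library 2 (0.0338). In the terminal pathway, 5 of 7 genes had at most 3 counts in all libraries. C5, the component cleaved to start the pore, rose by 0.92 (SE 0.25) in NR and 0.66 (SE 0.26, edgeR adjusted p = 0.0237) in SP from 20 to 36 counts in Ab, and in SP it no longer passed with DESeq2 (adjusted p = 0.109), without SP library 1 (edgeR adjusted p = 0.0928), without SP library 2 (0.0857) or without Ab library 3 (0.118). C8G, a subunit of C8, had 9, 4 and 1 counts in NR, with 2, 4 and 5 in SP, against 21, 41 and 26 in Ab, and fell, with log2 fold changes of -2.38 (SE 0.42) and -2.93 (SE 0.43). MASP2, the main protease of the lectin pathway, fell, with log2 fold changes of -1.36 (SE 0.30) in NR and -1.83 (SE 0.34) in SP, from 27, 55 and 45 counts in Ab.

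All 4 other membrane regulators on the list (CR1, CSMD1, SUSD4 and VSIG4) had at most 3 counts in every library. Among 8 receptors, 3 tested genes gave 1 that passed. ITGB2, the beta chain shared by complement receptors CR3 and CR4, rose by 1.14 (SE 0.14, edgeR adjusted p = 2.64e-08) in NR and 0.95 (SE 0.14, edgeR adjusted p = 4.79e-07) in SP, while ITGAM and ITGAX, which encode its partner chains in these receptors, had at most 4 and 5 counts. C5AR2, a C5a receptor at 45.7 to 50.9 CPM, had log2 fold changes of -0.091 (SE 0.06) and -0.078 (SE 0.06), and C5AR1, the other C5a receptor, had 0.29 (SE 0.19) and 0.36 (SE 0.18), and neither passed in edgeR.

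**Figure D4:**
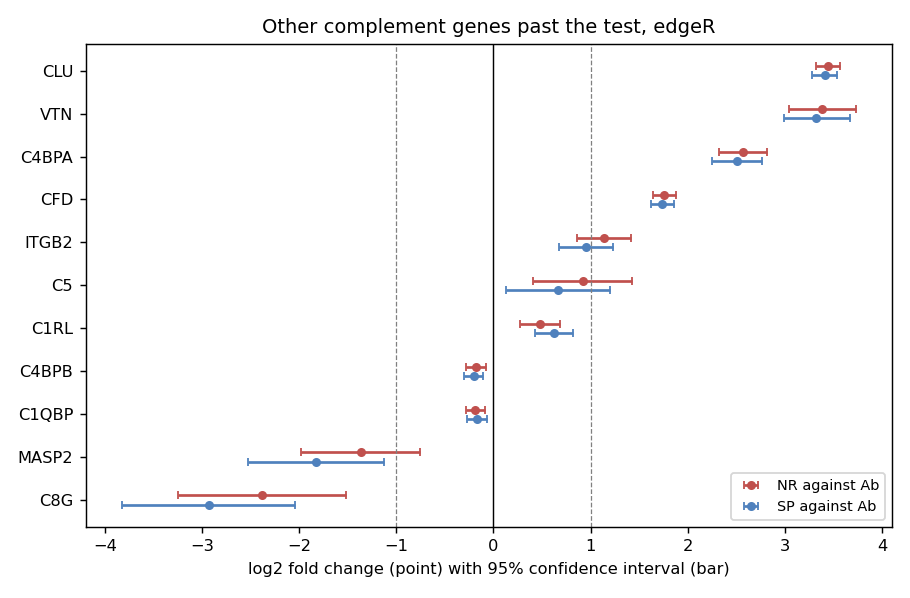
Log2 fold change (horizontal axis) of 11 of the 12 other complement genes that passed in NR against Ab and SP against Ab, from edgeR. Points are estimates, bars are 95% confidence intervals and dashed lines mark a 2-fold change; CLU, VTN, C4BPA and CFD lie beyond 2-fold higher, and MASP2 and C8G have estimates beyond 2-fold lower.

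Neighbouring genes of the chromosome 1 cluster did not move as a block. From C4BPB to CD46 (GRCh37 chr1:207262205-207968858), the log2 fold changes in NR against Ab in chromosomal order were -0.18 for C4BPB, 2.57 for C4BPA, -1.33 for CD55 and 0.93 for CD46, while CR2 and CR1 between CD55 and CD46 had too few reads to be tested. In SP against Ab they were -0.20, 2.51, -1.36 and 0.82. On chromosome 12, C1S, C1R and C1RL were all higher, by 3.89, 1.95 and 0.48 in NR and 3.75, 1.78 and 0.62 in SP.

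**Figure D5:**
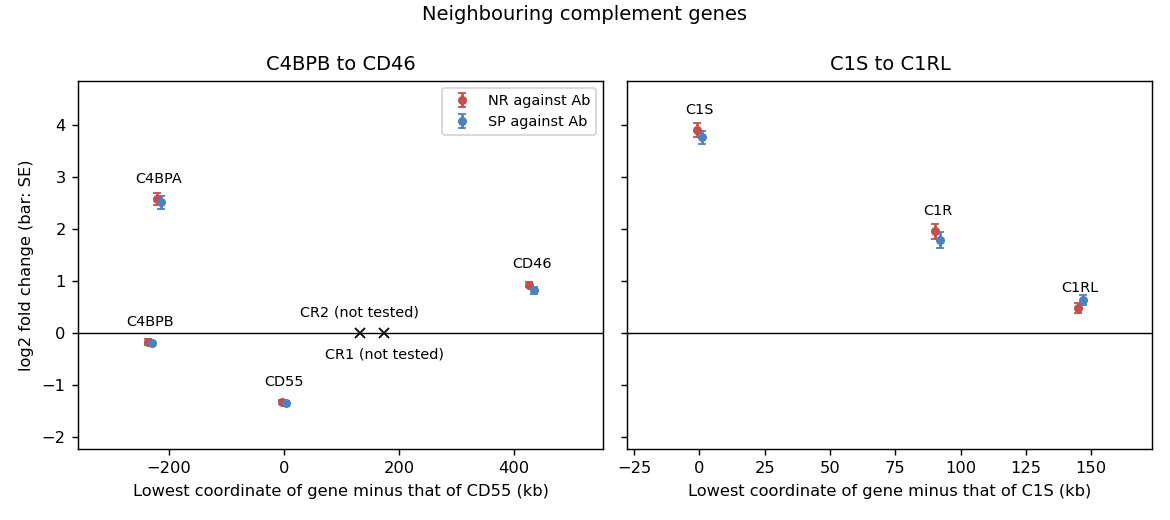
Log2 fold change (vertical axis, bars are SE) of neighbouring complement genes against the difference of their lowest coordinate from that of CD55 (left, kb) or C1S (right, kb), with NR and SP points set slightly apart. Crosses at 0 mark CR2 and CR1, which were not tested; neighbours on the left lie on opposite sides of 0 and those on the right all lie above 0.

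A list of 27 genes known to control complement gene transcription, among them interferon, STAT, interleukin 6, NF-kB, C/EBP and nuclear receptor genes, was counted beside the members. In NR against Ab, 25 were tested, 5 passed as higher and 12 as lower, beside 36.4% and 36.4% of all genes, and in SP against Ab 25 were tested, 4 passed as higher and 14 as lower, beside 36.4% and 36.6%. The median log2 fold changes were -0.12 and -0.18. The 6 with the smallest adjusted p in NR against Ab all fell. OSMR, the oncostatin M receptor, was at 298.4, 303.9 and 309.5 CPM in NR, 270.4, 299.3 and 312.4 CPM in SP, and 910.7, 887.1 and 882.7 CPM in Ab. Its nanoparticle libraries were all far below the Ab libraries, a log2 fold change of -1.58 (SE 0.04, edgeR adjusted p = 5.19e-23) in NR and -1.63 (SE 0.05) in SP. CEBPB, a C/EBP factor of the acute phase response, had -1.63 (SE 0.05) in NR and -1.76 (SE 0.06) in SP, and SOCS3, a feedback inhibitor of STAT signalling, had -1.14 (SE 0.05) and -1.22 (SE 0.06). The NF-kB subunit genes RELB, NFKB2 and RELA had log2 fold changes of -1.43, -0.89 and -0.79 in NR and -1.68, -0.996 and -0.775 in SP. Of the 5 that rose in NR, those named here after their values were seen are STAT3 (0.51), NR1H3 (0.48), JAK1 (0.39) and IFNGR2 (0.26), of which all but IFNGR2 also rose in SP.

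The genes whose pattern over the 9 libraries was most like that of C3 and of CD59 were found by Pearson's r of log2(CPM + 1) among 10707 genes with a mean of at least 5 CPM. For C3 they were MUC1 (r = 0.9995), GDPD5 (0.9994), NUCB1 (0.9993), TBCD (0.9990) and H19 (0.9989). For CD59 they were PRXL2A (0.9993), EMP2 (0.9992), PLA2G4A (0.9991), HSD17B7 (0.9989) and SKP2 (0.9988). The 9 points share 3 groups, so these values mainly reflect the gap between the Ab libraries and the others, and they are given as a description.

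Markers of other cell types were measured beside these results. The summed level of 3 matched endothelial markers was 22.9, 23.4 and 21.3 CPM in NR, 20.8, 22.9 and 24.0 CPM in SP, and 3.53, 3.72 and 5.04 CPM in Ab, mostly CDH5, with 2 of 2 tested rising and KDR at or near 0. The 5 fibroblast markers summed to 73.9, 70.8 and 68.6 CPM in NR, 74.0, 80.5 and 79.7 CPM in SP, and 44.4, 41.5 and 16.7 CPM in Ab, mostly COL1A1, and 2 of 5 tested (DCN and PDGFRB) rose in both comparisons. Ab library 3 stood apart in this list, and without it the members' log2 fold changes in NR were 1.90 for C3, 2.05 for C1R, 3.79 for C1S, 0.93 for CD46, -1.31 for CD55 and 1.02 for CD59.

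The 6 epithelial markers summed to 2248 to 2405 CPM in NR and SP and to 879 to 936 CPM in Ab, mostly KRT8, and 4 of 5 tested rose. CDH1 rose most, with log2 fold changes of 4.27 (SE 0.27) in NR and 4.52 (SE 0.26) in SP, and CLDN4 did not pass. Of 6 myeloid markers, 3 were at or under 3 counts throughout, and the sum was 2.96 to 6.09 CPM in NR and SP and 0.571 to 1.33 CPM in Ab, mostly CSF1R, which rose, while CD14 fell in NR. Of 4 lymphoid markers, 3 were at or under 3 counts in all libraries, with MS4A1 at 0. The hepatocyte sum was at most 0.125 CPM in any library. Mitochondrial genes took 4.36% to 4.66% of the counts in NR and SP libraries and 3.41% to 3.71% in Ab libraries. The part of these markers and of the mitochondrial share in the complement results was not tested.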

How the data were processed

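Poly-A RNA of SNU5 cells was sequenced as paired-end reads. The deposited values are whole read counts per Ensembl gene, not scaled between libraries. After cleaning of the reads, the authors used HISAT2 for alignment and summed the reads of each gene. The submitters' processing notes name HISAT2 2.1.0, DESeq2 1.16.1 and the mouse build mm9, while the reporting summary names hg19 and the gene IDs are human. The annotation release and the use of strand are not given in the sources used here. Without version suffixes, 59858 of 60880 IDs were named and placed with GENCODE 44 lifted to GRCh37, and 1022 IDs with no name took no more than 0.115% of any library.

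Each pair of groups was fitted on its own 6 libraries with edgeR 4.0.16 (R 4.3.3), TMM scaling, filterByExpr (minimum count 10, minimum total 15) and the robust quasi-likelihood test. SE is the absolute log2 fold change divided by the square root of F. The step was tested on simulated counts. TPM used the union of annotated exons. Promoter windows came from RefSeq (GRCh38.p14), where 6 of 9 members matched.

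Alternatives were DESeq2 1.42.0, RLE size factors, other filters on low counts, a fold minimum of 1.5, a joint fit of all 9 libraries, a replicate block, each library left out in turn and, added after seeing the data, the longest transcript as length. The members and gene lists were chosen with earlier results of these data known. Named genes were all 9 members, other complement genes that passed against Ab (at most 12), and the 6 transcription regulators with the smallest adjusted p in NR against Ab. Libraries of a group differed by more than sampling noise (chi-square per gene 1.84 to 7.43). Each was counted as 1 replicate, although this spread may be technical and does not show separate cultures. Figures were drawn with Python 3.11.15 and matplotlib 3.10.9. A few genes that met these rules are left out of the text.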

Additional observations from a re-analysis of the deposited data

How the results depend on the processing

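In NR against Ab and SP against Ab, the 6 tested members kept their direction and passed the test under DESeq2, RLE size factors, a filter of 1 count only, a filter of 10 counts in each library, a joint fit of all 9 libraries, the replicate block and each library left out in turn. The log2 fold change in NR against Ab ranged from 1.85 to 1.93 for C3, 1.85 to 2.05 for C1R, 3.79 to 4.08 for C1S, 0.89 to 0.95 for CD46, -1.38 to -1.30 for CD55 and 0.99 to 1.03 for CD59. Of 114 counts under alternatives, 112 were within 1.5 times the reported one. The exceptions were the other complement genes called with the filter of 10 counts in each library, 5 in NR against Ab in place of 8 and 4 in SP against Ab in place of 7, a filter that leaves fewer genes to test. In NR against SP, where no member passed, the log2 fold change changed sign for C3 without SP replicate 3 (-0.019) and without NR replicate 3 (-0.037), with a range up to 0.041 over libraries left out, and for CD55 without SP replicate 1 (-0.032) and without NR replicate 1 (-0.0026), with a range up to 0.077, and the cause was not tested.

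The labels share replicate numbers between groups, but libraries with the same number did not deviate together (correlations of -0.123 to 0.0617 over 11875 genes). No pairing by number was thus visible in the values, and whether same-numbered libraries were prepared together cannot be told from them. With the replicate block, members called stayed at 5, 4 and 0 in the 3 comparisons. RLE in place of TMM scaling moved the median log2 fold change over all genes by 0.00445 in NR against Ab, 0.00281 in SP against Ab and 0.00196 in NR against SP. For CFB, CFI, SERPING1 and the 27 other complement genes at or under 3 counts, the counts were too low for a difference to be detectable. Whether depth, exon bases shared with other genes or a lack of transcript made them low was not tested.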
